A study of Arabidopsis thaliana with 8 samples.

Results

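The genes considered were those of proline synthesis and breakdown in Arabidopsis, 6 loci chosen by function. A locus entered when a probe set of the array named it alone, or named only loci of the list, in the platform's probe and gene table. This held for 1 of the 6, proline dehydrogenase 2 (PRODH2, AT5G38710), against 13286 loci named in this way on the whole array. A gene without such a probe set may still be read by one whose locus that table does not name, and the same holds for the lists below. The other breakdown genes, PRODH1 (AT3G30775) and P5CDH (AT5G62530), and the synthesis genes P5CS1 (AT2G39800), P5CS2 (AT3G55610) and P5CR (AT5G14800), were not analysed here. Synthesis and breakdown could therefore not be compared, and the results below concern PRODH2 and measured genes of pathways linked to it.

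Plants make proline mainly from glutamate in the cytosol and chloroplast, where P5CS activates and reduces glutamate and P5CR makes the final reduction. Breakdown runs in mitochondria, where proline dehydrogenase, a flavoenzyme of the inner membrane, oxidises proline to pyrroline-5-carboxylate and passes the electrons to the respiratory chain. P5CDH then returns the product to glutamate. Ornithine aminotransferase feeds the same intermediate from arginine. Arabidopsis has 2 proline dehydrogenases, and PRODH2 is known as the less abundant form, expressed in vascular tissue and in ageing tissue.

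Transcripts were read on 8 ATH1 arrays, 1 for each of 4 treatments in rosettes (shoot) and in roots of Columbia-0 plants about 3 weeks old, grown without soil in nutrient solution. Control plants stayed on the base solution, for which the labels give 8 nM iodine as a contaminant. The study's methods give that concentration as a detection limit that the solution did not reach, so it is an upper bound. The other plants received KBr, NaI or KI at 10 µM for 48 h. Tissue of 3 plants was pooled per sample. A single array per treatment and organ leaves no replicate spread, so every fold compares a pair of arrays, and p-values could not be given. A signal is the MAS5 summary of the probes for a transcript, on a linear scale. Array medians ran from 168 to 193, and between 58.5% and 61.7% of probe sets reached a signal of 100. The organ labels were checked with 10 leaf and 10 root markers, of which 2 and 1 had a probe set of their own. RCA and SBPASE, photosynthesis genes, summed to between 42734 and 49156 in shoot and between 68.3 and 109.9 in root, with neither at 0. EXPA7, an expansin of root hairs, lay between 2.22 and 36.4 in shoot.

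In root, the PRODH2 transcript was several times higher with both iodide salts. The control array read 63.3 and the KBr array 96.1, against 515 with NaI and 441 with KI. The iodide arrays thus stood apart from the control and KBr arrays, and the lower of them was 4.59-fold above the KBr array. Over control the signal was 8.14-fold in NaI (log2 ratio 3.03), 6.97-fold in KI (2.80) and 1.52-fold in KBr (0.60). A probe set was called when the log2 ratio was at least 2 in size, that is 4-fold, and the brighter of its arrays read 100 or more. The fold and the minimum come from the study's methods, whose detection p was not used here and which do not say on which array the minimum applies. PRODH2 was called higher in NaI, as were 2.55% of the 14992 probe sets that reached 100 on some root array, and in KI, as were 2.6%. It reached 100 in root through the iodide arrays only, and with the minimum required on both arrays compared it was called in neither salt. Called in both iodide salts and not in KBr were 2.26%, PRODH2 among them. The study's own lists of root genes changed by both iodide salts and not by KBr also name PRODH2, so the call repeats one from the same arrays.

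**Figure D1:**
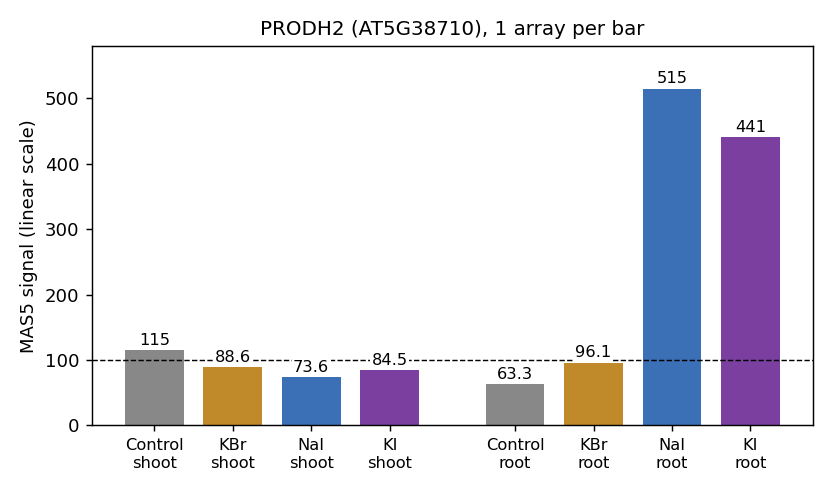
MAS5 signal of PRODH2 (linear scale, from 0) on each of the 8 arrays, 1 bar per array, with no error bar because each group had 1 array. The dashed line marks a signal of 100, which in root only the NaI (515) and KI (441) arrays exceeded and in shoot only the control (115).

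Within the called probe sets PRODH2 was near the middle. The 339 had a median log2 ratio of 2.84 for NaI and of 2.90 for KI, and 145 and 184 of them lay above PRODH2. Among all 14992 root probe sets, 1.05% had a higher ratio in NaI and 1.35% in KI, where the median of all was -0.06 and -0.07. PRODH2 entered these probe sets through its iodide arrays only, so its rank is not independent of that entry and describes the arrays only. NaI and KI, which share iodide but not the cation, were compared directly. The NaI signal was 1.17-fold the KI signal, a log2 difference of 0.22. Of 3467 other root probe sets within 0.5 log2 units of PRODH2 in mean signal on these 2 arrays, 29.7% differed at least as much and the median difference was 0.15. The difference between the iodide salts was thus of a size common between these arrays.

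**Figure D2:**
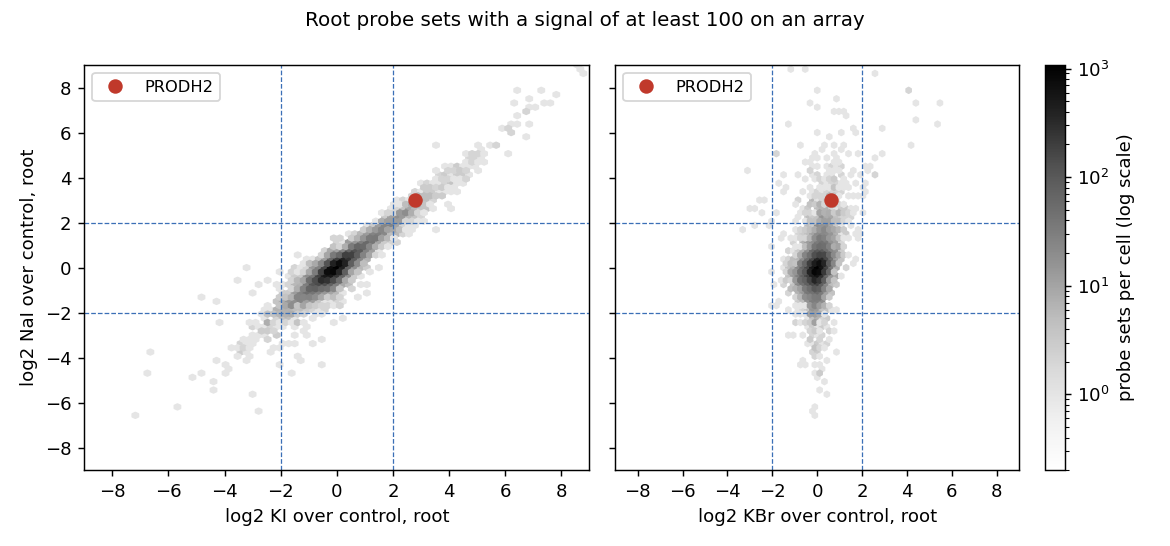
Log2 ratio over control in root for NaI (vertical axis) against KI (left) and KBr (right), shaded by the number of probe sets per cell, for the 14992 probe sets that reached 100 on some root array, with dashed lines at 4-fold. All ratios share the control array, and PRODH2 (red) lies past 4-fold for both iodide salts and at 0.60 for KBr.

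The KBr signal in root was above control by less than 2-fold, a looser threshold that 0.387% of root probe sets passed upward in KBr. At 0.60 the ratio was nonetheless exceeded by 3.15% of root probe sets. Its signals of 63.3 and 96.1 are dim. Of 2231 probe sets of like signal on the control and KBr arrays, 21.2% differed at least as far in either direction, with a median difference of 0.31. The 339 called probe sets had a KBr median above 0, at 0.44, and 125 of them lay above PRODH2 in KBr. They were selected by ratios over the same control array, so their KBr ratios are not independent of that selection. With KBr in place of the control as baseline, the PRODH2 log2 ratio was 2.42 in NaI and 2.20 in KI, and the gene remained past 4-fold.

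In shoot, PRODH2 was dim on all arrays, and each salt array lay below the control. The control array read 115, against 88.6 with KBr, 73.6 with NaI and 84.5 with KI. The log2 ratios over control were -0.38 in KBr, -0.64 in NaI and -0.44 in KI, all under 2-fold. Only the control array reached 100. Of 2448 shoot probe sets of like signal, 46.1% differed between KBr and control at least as far as PRODH2 did, and NaI and KI differed by 0.20, less than the median of 0.48 for like probe sets. Against KBr the iodide ratios were -0.27 and -0.07. Of 14761 shoot probe sets, 7.26% had a lower ratio than PRODH2 in NaI, 11.6% in KBr and 13.0% in KI. PRODH2 entered these probe sets through the control array alone, so its ratios could only lie below control. All of these ratios share the control array, and none reached 2-fold.

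The organ with the higher PRODH2 signal differed between treatments. In control the shoot signal was 1.82-fold that of root (log2 root over shoot -0.86). In KBr the organs were within 1.08-fold of each other, with root above shoot as deposited and below it after all 8 arrays were brought to the same distribution (log2 0.12 and -0.12). With NaI the root signal was 6.99-fold the shoot signal and with KI 5.21-fold. The root change exceeded the shoot change by 3.67 log2 units in NaI, 3.24 in KI and 0.98 in KBr. Of 12809 probe sets that reached 100 in both organs, 19, or 0.148%, were, PRODH2 included, no higher in root than in shoot in control and at least 4-fold higher in root with both iodide salts. This condition restates the pattern of PRODH2, which reached 100 in root through the iodide arrays only and in shoot through the control alone. The place of PRODH2 among them was therefore given in advance, and the share describes the arrays only. Per the study's methods root RNA was extracted with a kit and rosette RNA by another procedure, while the labels give 1 procedure for both, so organ and extraction cannot be told apart in these ratios.

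EXPA7, the measured root marker, moved with the iodide arrays as well. Its root signal was 1917 without added salt, 1731 with KBr, 582 with NaI and 635 with KI, a log2 ratio of -1.72 and -1.59 in the iodide salts. In pooled organs, fewer cells of a type and less RNA per cell cannot be told apart, and the part of such a shift in the PRODH2 value was not tested.

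The ornithine route was represented by 1 of 3 listed genes. Ornithine aminotransferase (OAT, AT5G46180), a mitochondrial enzyme that forms pyrroline-5-carboxylate from ornithine, read 333 in control roots, 430 with KBr, 626 with NaI and 658 with KI. Both iodide arrays lay above the others, at 1.88-fold and 1.98-fold over control. This was short of 2-fold, which 5.6% of root probe sets passed upward in both iodide salts. In shoot OAT was at 369, 378, 448 and 457 in the same order, at most 1.24-fold over control. PRODH2 and OAT both had their highest signals in root with iodide, and in shoot the iodide arrays were above control for OAT and below it for PRODH2. The shoot changes of both genes were under 2-fold and rest on the same control array, so this difference in sign was not tested.

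Other amino acid breakdown was represented by few genes. Of 13 listed genes of this kind and of energy deprivation, 6 had a probe set and all 6 were measured in both organs. None of the 6 was past 2-fold in both iodide salts. Of all probe sets 5.6% were so higher and 3.23% lower in root, and 1.27% and 0.82% in shoot, so that a count of 0 is near the background. Their root medians were 0.05 in KBr, -0.07 in NaI and -0.30 in KI on the log2 scale, and their shoot medians 0.12, 0.23 and 0.20. MCCA, a subunit of the leucine breakdown enzyme methylcrotonyl-CoA carboxylase, read 741 in control roots, 734 with KBr, 504 with NaI and 498 with KI. LKR/SDH, the first enzyme of lysine breakdown, read 663, 683, 508 and 425 in the same order. For both the iodide arrays lay below control and KBr, by less than 2-fold, where PRODH2 lay above. In shoot MCCA was at 297, 384, 452 and 409, and MCCB, the other subunit of that carboxylase, at 659, 704, 808 and 861. The electron carrier ETFQO, which like proline dehydrogenase delivers electrons to ubiquinone, was at 325, 374, 377 and 350 in root, within 1.16-fold of control.

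**Figure D3:**
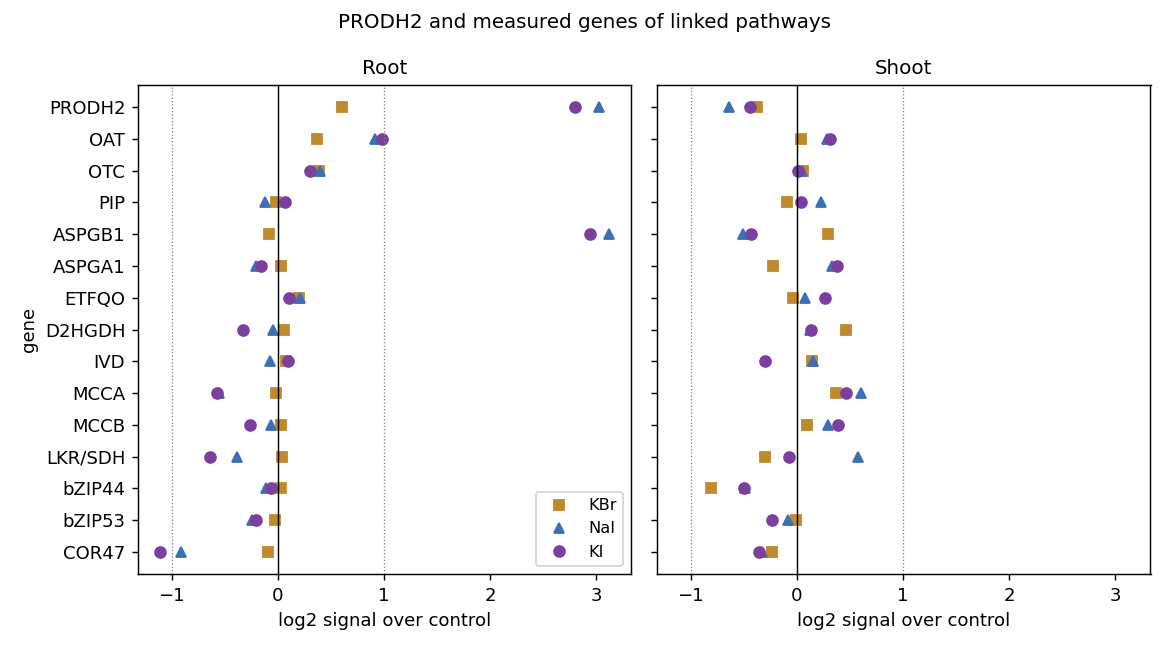
Log2 signal over control in root (left) and shoot (right) for PRODH2 and 14 measured genes of linked pathways, with KBr as squares, NaI as triangles and KI as circles, 1 array each, and dotted lines at 2-fold. PRODH2 and the asparaginase gene ASPGB1 lie past 4-fold with iodide in root. The other plotted genes lie within 2-fold in root except COR47 in KI at -1.11, and HRGP1 is not plotted.

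Genes whose RefSeq names mention proline iminopeptidase, ornithine, asparaginase or hydroxyproline were looked up after values had been seen. ASPGB1 (AT3G16150), an asparaginase that releases ammonia from asparagine, read 218 in control roots, 207 with KBr, 1897 with NaI and 1681 with KI. The iodide arrays were 8.69-fold and 7.70-fold over control, close to the folds of PRODH2, and the KBr array was not above control. Its shoot signals were dim, at 94.5, 116, 66.3 and 70.2, with both iodide arrays lowest, as for PRODH2. In KBr its shoot log2 ratio was 0.29, where that of PRODH2 was -0.38. The other asparaginase gene, ASPGA1, was at 1136, 1162, 985 and 1021 in root. Ornithine carbamoyltransferase (OTC), which draws ornithine into arginine synthesis, was at 950, 1243, 1247 and 1173 in root, with all 3 salts above control alike. Proline iminopeptidase (PIP), which frees proline from the ends of peptides, was at 1053, 1038, 970 and 1104, with NaI lowest and KI highest. HRGP1, a hydroxyproline-rich wall glycoprotein and not an enzyme, was at 8611, 5362, 3129 and 3447 in root. Its log2 ratios were -1.46 in NaI and -1.32 in KI, past 2-fold lower in both, as were 3.23% of root probe sets.

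Group C and S1 bZIP factors are known as activators of the main proline dehydrogenase gene when external osmolarity drops or energy is short. Of 9 listed, 2 were measured and neither was past 2-fold in any salt. Of all probe sets 5.6% were 2-fold higher and 3.23% lower in both iodide salts in root, and 1.27% and 0.82% in shoot. With 2 genes, a count of 0 is therefore near the background. In root bZIP53 read 3535 in control, 3464 with KBr, 2993 with NaI and 3061 with KI. For bZIP44 the values were 1217, 1247, 1124 and 1167, with the iodide arrays below control by less than those of bZIP53. In shoot bZIP44 was at 314 in control and between 179 and 224 in the salts, and bZIP53 between 1337 and 1576. Water deficit and abscisic acid genes are known to accompany proline accumulation, and 2 of 14 had a probe set. The dehydrin gene COR47 had root signals of 6845, 6431, 3650 and 3181, log2 ratios -0.91 for NaI and -1.11 for KI, and was past 2-fold lower with KI alone. In shoot it was at 10542, 8936, 8410 and 8208. COR15A, a chloroplast-protecting cold gene, was at 24960, 18279, 19653 and 18474 in shoot and did not reach 100 in root. None of 6 amino acid transporters and none of 15 genes of glutamate and GABA metabolism had a probe set naming it alone.

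Genes whose changes were most like those of PRODH2 were sought among 6941 other probe sets that named 1 gene and reached 100 in both organs. Likeness was the root mean square difference of the 6 log2 ratios, 3 salts in each organ, with signals under 50 set to 50. The closest were AT2G39400, an alpha/beta hydrolase gene, at 0.325, AT1G25400, a transmembrane protein gene, at 0.339, and AT3G23170, of unnamed function, at 0.340, against a median of 1.81 over all compared. In root AT2G39400 read 68.9 in control, 154 with KBr, 471 with NaI and 515 with KI, with KBr more than 2-fold above control. AT1G25400 had 199, 218, 1410 and 1110, with KBr close to control, as for ASPGB1, which was the ninth at 0.400. AT3G23170 had 107, 230, 628 and 824. These likenesses rest on 6 ratios from arrays that share their controls and describe the arrays only.

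**Figure D4:**
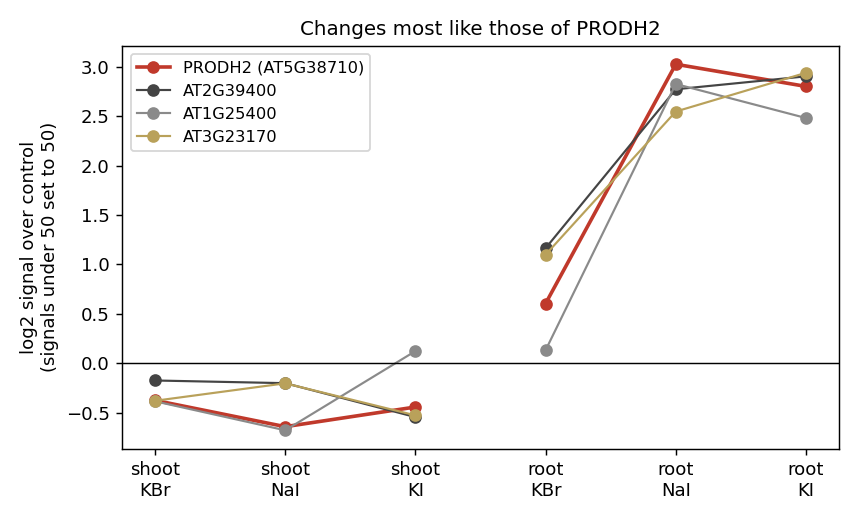
Log2 signal over control (signals under 50 set to 50) for PRODH2 (red) and the 3 genes of most similar changes, in shoot and root with KBr, NaI and KI, 1 array per point. All 4 genes lie between 2.48 and 3.03 with iodide in root and between -0.68 and 0.12 in shoot, while their KBr values in root run from 0.13 to 1.16.

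The neighbours of PRODH2 on chromosome 5 were examined by gene order. Of the 10 protein-coding genes on each side, 11 had a probe set of their own and 6 reached 100 in root. One of the 6, AT5G38790, lying 10 genes away, was past 2-fold higher in both iodide salts, as were 5.6% of all root probe sets, with 109 in control, 131 with KBr, 222 with NaI and 262 with KI. The nearest genes on either side were within 2-fold of control in all salts, AT5G38700 at 82.6, 49.3, 115 and 101 and AT5G38720 at 314, 181, 305 and 266.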

How the data were processed

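The authors hybridised labelled RNA to ATH1 arrays and deposited the MAS5 signal of every probe set, a linear intensity. Trimmed by 2% at either end, the array means were all 499.8. The detection p was not used here, and probe sequences were not examined, so cross-hybridisation between the proline dehydrogenase genes was not tested. Of 22746 probe sets other than Affymetrix controls, 13436 named 1 locus through the platform table and RefSeq (TAIR10.1). Log2 ratios were taken without pseudocount or further normalization, and the code for the fold rule was checked on simulated tables. PRODH2 was always named. From each other list up to 4 genes per organ past 4-fold in both iodide salts were to be named, or, with none, the 2 measured genes of highest mean signal, as well as the 3 genes of most similar changes. The leaf and root markers came from a fixed list. Values were already known when ETFQO, ASPGB1, ASPGA1, OTC, PIP, HRGP1, the other genes plotted outside this rule and the chromosomal neighbours were picked. The genes and lists were chosen with earlier results of these data known. Python 3.11.15, numpy 2.4.6, pandas 2.3.3 and matplotlib 3.10.9 were used. The number of arrays limits the precision.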

Additional observations from a re-analysis of the deposited data

Results flagged for a closer look

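PRODH2 was above the control on both iodide arrays in root and below it on both in shoot. The KBr arrays had the same signs, at 0.60 in root and -0.38 in shoot. The root log2 ratio of PRODH2 exceeded its shoot ratio by 3.67 in NaI, 3.24 in KI and 0.98 in KBr. Of 167 root-called probe sets that reached 100 on some shoot array, 30 lay below shoot control in both iodide salts. Of these, 25 did so in KBr too, while 103 of the 167 lay above control in both iodide salts. The same shares over all shoot probe sets were not counted, so the split cannot be read as particular to the 167. PRODH2 entered the 167 through its shoot control array alone, so its place among the 30 was given in advance. With 1 array per treatment and organ the difference between organs was not tested, and the PRODH2 shoot signals lay under 100 on all salt arrays.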

How the results depend on the processing

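The root log2 ratio of PRODH2 ran from 2.42 to 3.07 in NaI and from 2.20 to 2.83 in KI over 2 normalizations and 2 other baselines, lowest with KBr as baseline. A floor of 50 and a wider choice of probe sets could not move them, since no PRODH2 signal was under 63.3 and no further probe set named a listed locus. That baseline also moved the shoot ratios to -0.27 in NaI and -0.067 in KI. When a signal of 100 was required on both arrays compared, PRODH2 was not called and the count of proline genes past 4-fold or 2-fold in root was 0 for NaI and KI, because the control signal was 63.3. The KBr root over shoot ratio turned to -0.12 after quantile normalization of all 8 arrays. Of 216 alternative values, 188 equalled the reported one. Most of these were counts of 0 or came from settings that could not act, and those say nothing about stability. Another 19 differed from it by less than the usual difference between the KBr and control arrays at like signal (0.31 in root and 0.35 in shoot, the larger for ratios between organs), which stood in for a replicate spread. The difference between breakdown and synthesis and its alternatives were not run, since the table used names no probe set for a synthesis gene. One array per group limits every value, and dim signals limit those of the shoot and of the root control most.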
